A study of Mus musculus with 51 samples.

Results

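The replication-dependent histone cluster of mouse chromosome 13 is the largest group of canonical histone genes in the mouse genome. Its members were taken as the protein-coding genes of the mm10 annotation that lie between 21.7 and 23.8 Mb of chromosome 13 and whose symbol begins with Hist1h. The rule gave 52 genes of the 21938 protein-coding genes on chromosomes 1 to 19, X and Y. They comprise 6 H1 genes, 12 H2A genes, 14 H2B genes, 9 H3 genes and 11 H4 genes. The promoter of a gene was 1 kb to either side of each of its annotated transcript starts. A further 45 protein-coding genes of the same interval and 13 replication-dependent histone genes of other clusters (Hist2h, Hist3h and Hist4h) served as neighbours and relatives. Hist1h2aa and Hist1h2ba, the testis-enriched H2A and H2B genes, lie beyond the interval at 23934462-23934851 and 23933773-23934156 and were not counted.

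The series measured open chromatin (ATAC-seq), histone marks, the chromatin remodeler HELLS and the recombinase DMC1 in mouse male germ cells and testis. Its title concerns HELLS and PRDM9 at meiotic recombination hotspots. Libraries from male germ cells came from mice aged 12 to 14 days. For ATAC-seq there were 2 libraries of strain C57BL/6J (B6), 2 of B6-Prdm9CAST-KI, in which B6 mice carry the Prdm9 allele of the CAST strain, 3 of Hells CKO, 2 of Hells wt and 2 of (B6xCAST) F1 hybrids. H3K9ac, a mark of active promoters, was read in 3 B6 libraries, 2 B6-Prdm9CAST-KI libraries, 1 Spo11/Spo11 library and 1 F1 library. H3K4me3, the mark of promoters and PRDM9 sites, was read in 3 Hells CKO libraries, 1 Hells wt library, 2 Spo11/Spo11 libraries and 1 Spo11/+ library. DMC1 was precipitated from whole testis of mice aged 6 weeks, with 2 libraries of Hells het and 2 of Hells CKO, and each genotype had 1 merged peak list. HELLS was precipitated from whole testis of B6-Prdm9CAST-KI mice aged 12 to 14 days. No label names the deleted part of Hells or the promoter that drives recombination in the CKO. None says either that the libraries of a group are from different animals, and the p-values therefore reflect only the spread among libraries.

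Replication-dependent histone genes are transcribed mainly in S phase, when new nucleosomes are built on copied DNA. Their transcripts end in a stem-loop instead of a poly(A) tail, and they are made in a nuclear compartment, the histone locus body, organised by NPAT. H2A and H2B genes commonly lie head to head around a shared upstream region, and many core histone promoters hold TATA and CCAAT boxes. Spermatogonia and preleptotene spermatocytes replicate DNA, whereas later spermatocytes do not. Hist1h1t encodes the testis-specific linker histone H1t, which is made from the pachytene stage on. PRDM9 writes H3K4me3 at its binding sites and SPO11 cuts DNA there, after which DMC1 coats the resected single strands. In mice without PRDM9, such breaks form at promoters and other H3K4me3 sites instead.

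The 6 stretches below lie directly upstream of RefSeq starts and are shown because results turn on their genes. Hist1h1t, Hist1h4k and Hist1h3h had a DMC1 peak at the promoter in both genotypes. The Hells het peak covers the printed stretch of Hist1h4k, while those at Hist1h1t and Hist1h3h begin downstream of the printed stretches. Hist1h4j and Hist1h4k carried the HELLS peaks, Hist1h1b had the highest H3K4me3 of the members, and Hist1h2ai lies in the region with an allelic difference. They are from RefSeq on build GRCm38.p6 and read 5′ to 3′ on the gene's strand, with the TATA box TATAAA, the CCAAT box (either CCAAT or its complement ATTGG) and the H1 box AAACACA in capitals.
Hist1h1t, chr13:23695561-23695810, plus strand: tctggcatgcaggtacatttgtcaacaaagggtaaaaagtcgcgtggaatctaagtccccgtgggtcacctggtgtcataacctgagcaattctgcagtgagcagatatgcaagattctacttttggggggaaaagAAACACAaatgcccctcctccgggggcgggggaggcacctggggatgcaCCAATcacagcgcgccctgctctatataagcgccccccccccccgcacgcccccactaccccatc
Hist1h4j, chr13:21734784-21735033, plus strand: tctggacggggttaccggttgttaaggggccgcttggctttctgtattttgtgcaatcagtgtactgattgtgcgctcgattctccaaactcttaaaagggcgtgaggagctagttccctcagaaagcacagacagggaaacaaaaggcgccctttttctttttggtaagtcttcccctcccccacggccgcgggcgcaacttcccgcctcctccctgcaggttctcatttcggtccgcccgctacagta
Hist1h4k, chr13:21750554-21750803, minus strand: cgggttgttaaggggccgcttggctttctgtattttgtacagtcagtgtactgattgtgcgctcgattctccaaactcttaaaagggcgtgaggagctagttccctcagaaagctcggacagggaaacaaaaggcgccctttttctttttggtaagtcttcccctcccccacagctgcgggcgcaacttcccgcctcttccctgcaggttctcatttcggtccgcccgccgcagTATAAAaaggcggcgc
Hist1h3h, chr13:21717378-21717627, plus strand: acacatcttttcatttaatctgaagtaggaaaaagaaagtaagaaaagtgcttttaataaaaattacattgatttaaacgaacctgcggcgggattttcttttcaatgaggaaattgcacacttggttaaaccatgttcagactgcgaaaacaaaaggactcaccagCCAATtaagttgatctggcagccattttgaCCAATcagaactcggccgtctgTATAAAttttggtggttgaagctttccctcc
Hist1h1b, chr13:21780626-21780875, minus strand: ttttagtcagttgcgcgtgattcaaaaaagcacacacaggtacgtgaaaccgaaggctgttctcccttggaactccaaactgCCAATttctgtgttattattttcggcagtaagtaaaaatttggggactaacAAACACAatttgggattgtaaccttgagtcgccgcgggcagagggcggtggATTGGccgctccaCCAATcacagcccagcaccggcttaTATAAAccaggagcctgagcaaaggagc
Hist1h2ai, chr13:21716184-21716411, plus strand: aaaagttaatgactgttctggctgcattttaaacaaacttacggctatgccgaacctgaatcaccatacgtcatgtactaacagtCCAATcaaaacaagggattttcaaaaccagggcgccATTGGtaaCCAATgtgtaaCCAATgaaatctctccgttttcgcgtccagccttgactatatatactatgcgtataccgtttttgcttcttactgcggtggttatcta

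In Hist1h1b the first base of TATAAA lay 28 bases before the start, with CCAAT at 53 and an H1 box at 117 bases before it. Hist1h1t had no TATAAA in this window, a CCAAT at 65 bases and an H1 box at 114 bases before its start. Hist1h3h had TATAAA at 31 bases and CCAAT at 53 and 83 bases. Its TATAAA and nearer CCAAT lay close to those of Hist1h1b, which also had an ATTGG at 66 and a CCAAT at 168 bases. Hist1h4k had TATAAA at 16 bases and no CCAAT, and the matching TATAAA of Hist1h4j runs past the RefSeq start and so past the printed end. All these distances are to RefSeq starts. For Hist1h4k, Hist1h3h and Hist1h4j these lie 48, 31 and 30 bp upstream of the starts used for the promoters elsewhere. The windows of Hist1h4j and Hist1h4k had 274 of 286 bases in common (95.8%) once shifted by 14 bases.

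RefSeq promoter windows, 250 bases before to 50 bases after a start, were found for 48 of the 52 members and searched on both strands. None of the motifs contains another. TATAAA was in 29 of the 48 (60.4%), against 13.6% of 32851 promoter windows of the same length. CCAAT was in 40 of 48 (83.3%), against 37.4%. CCAAT was in every matched H1, H2A, H2B and H3 window, and in 3 of the 11 H4 windows (27.3%). The octamer ATTTGCAT was in 8 of 48 (16.7%) against 1.74%, and these were 4 H2A and 4 H2B windows. The H1 box was in 7 of 48 (14.6%) against 7.18%, and 5 of the 6 H1 windows held it. Of the members, 20 formed 10 head-to-head pairs of an H2A and an H2B gene, with starts 176 to 302 bp apart (median 259.5).

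Library totals over the regions counted were 27952728 to 34572929 counts for ATAC-seq of the strains, 6416704 to 11352108 for ATAC-seq of the Hells groups, 13195275 to 30233934 for H3K9ac and 13321006 to 42007820 for H3K4me3. For the F1 libraries each allele had 3125377 to 5003968 counts. The testis libraries and germ cell libraries are bulk samples, so fewer cells of a type and less signal per cell cannot be told apart. Promoters of Sertoli cell markers had 15 regions in the H3K4me3 table and those of meiotic prophase genes 29, and which cells carried the mark at the former was not tested.

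Several members are near copies of each other, which bears on what short reads can show. The share of 31-base words in a promoter that occur nowhere else in the genome had a median of 72.3% over the members and ranged from 0% to 100%. Hist1h1t was at 100%. It was under 5% in 6 members, namely Hist1h2bq, Hist1h2ao, Hist1h2ap and Hist1h2br at 0%, Hist1h4m at 4.06% and Hist1h4n at 4.01%. A counted region overlapped the promoter of 37 members in the ATAC-seq table of the strains, 38 in that of the Hells groups, 35 in the H3K9ac table and 35 in the H3K4me3 table, and 33 members had a region in each of these. These regions numbered 21, 30, 19 and 18, since neighbouring members share them. No region in any of these tables overlapped 13 members: the 6 above and Hist1h2ak, Hist1h2bn, Hist1h4h, Hist1h2bh, Hist1h3f, Hist1h4c and Hist1h1c. The latter 7 had 68.5% to 91.1% unique words, a start in chromatin state 1 or 2, and a DMC1 peak in Hells CKO. Each of these count tables therefore covers at most 38 of the 52 members.

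Levels were compared per kb, as the mean over libraries of CPM, the counts scaled to a common library total, per kb of region. At H3K9ac every one of the 19 member regions lay above the median of all promoter regions, with a median of 10.04 CPM per kb (7.5 to 16.1) against 5.96. For ATAC-seq the member medians were 18.4 (9.65 to 29.4) against 13.6 in the strains, with 17 of 21 regions above the promoter median, and 15.1 (10.4 to 46.2) against 12.5 in the Hells groups, with 26 of 30 above. H3K4me3 was closer to other promoters, with a median of 11.4 CPM per kb (8.19 to 15.9) against 10.3 and 13 of 18 regions above. That reference was 18680 promoter regions, which belonged to 16212 genes. Ranked by gene instead, 26 members fell in quartile 2 of H3K4me3 level and 9 in quartile 3. Most members with a region thus lay below the median gene, so no direction is given for H3K4me3. No test was made of these levels.

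By family, the H1 genes had the highest median H3K4me3, 15.2 CPM per kb, while H2A, H2B and H3 were at 11.2, 11.4 and 11.4, and H4 at 9.55. H3K9ac gave the same leading family, with H1 at 12.6 CPM per kb and the 4 core families from 8.48 to 9.53. For both marks the H1 median rests on 4 of the 6 H1 genes. Among these, Hist1h1e and Hist1h1a share their regions with core histone genes. Hist1h1b, a somatic H1 gene, had the highest level of both marks, at 15.9 and 16.1 CPM per kb. For H3K4me3 the pair Hist1h2be and Hist1h1e (15.7) and the region of Hist1h4a, Hist1h3a and Hist1h1a (14.7) came next, and Hist1h4d (8.19), Hist1h3i (8.32) and Hist1h4k (9.17) were lowest. For H3K9ac the next were Hist1h4a, Hist1h3a and Hist1h1a (14.4) and Hist1h4b (12.95), and the lowest were the region from Hist1h2ae to Hist1h3d (7.5), Hist1h4d (7.74) and the pair Hist1h2ah and Hist1h2bk (7.95). Hist1h1t and Hist1h4c had no region for either mark.

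Open chromatin was ordered differently in the ATAC-seq tables. In the Hells libraries it was highest where H2A and H2B genes share an upstream region, with the leading pairs Hist1h2an and Hist1h2bp (46.2 CPM per kb), Hist1h2ah and Hist1h2bk (42.6) and Hist1h2ac and Hist1h2bc (41.6), and the H2A and H2B medians were 28 and 27 against 14.5 to 16.6 for the other families. Regions there were narrow, 578 to 639 bp, which raises a level per kb. In the strains Hist1h4a, Hist1h3a and Hist1h1a (29.4), Hist1h2an and Hist1h2bp (29.1) and Hist1h2bm (26.3) led, and the H2A and H2B medians were 20.04 and 23.1 against 16.5 to 18.5 for the other families. Hist1h3e was lowest in both tables (9.65 and 10.4). Hist1h1t was among the 3 lowest in each, at 12.2 and 11.2 CPM per kb, beside Hist1h2ae and Hist1h2bg (12.5) in the strains and Hist1h3d (10.7) in the Hells groups.

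The deposited segmentation of the genome has 11 numbered chromatin states, which the labels do not name. State 1 held the start of 43 members (82.7%), against 39.0% of all protein-coding genes. State 2 held 8 (15.4%), against 27.1%, and the remaining start, that of Hist1h1d, was in state 5. The RefSeq start of Hist1h1d lies 1770 bp downstream of the start used, and the state there was not read. Only 4 and 3 of the 45 other genes of the interval started in state 1 and state 2. Over whole promoters, 92.5% of member bases were in state 1 or 2, against 57% for all genes, 11.3% for the other genes of the interval and 97.7% for the Hist2h, Hist3h and Hist4h genes. State 1 covered 7.78% of the interval, against 1.60% of the genome.

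A DMC1 peak lay at most members in Hells CKO testis and at few in Hells het testis. In the Hells het list, 4 of 52 members (7.69%, exact 95% binomial interval 2.14% to 18.5%) had a peak at the promoter, against 7.72% of all protein-coding genes, which is the background share. In the Hells CKO list, 43 of 52 (82.7%, 69.7% to 91.8%) had one, against 40.3% of all genes. A peak in Hells CKO alone was found at 39 members (75.0%, against 34.6% of all genes), a peak in both genotypes at 4 (7.69%, against 5.68%), and a peak in Hells het alone at 0. The intervals cover counting error only, and neighbouring promoters share peaks, so members are not independent. With 1 merged list a genotype there is no replicate and no test. When a promoter was taken at the gene's outermost 5′ start alone, an alternative chosen after seeing the data, the share of all genes was 3.99% for Hells het and 37.5% for Hells CKO, and the member counts were 4 and 43.

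**Figure D1:**
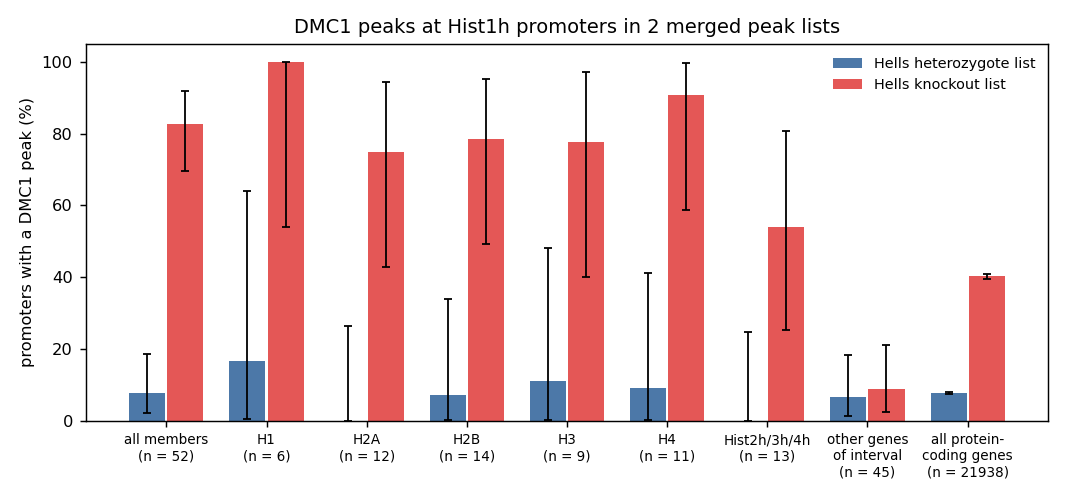
Percentage of promoters that overlapped a DMC1 peak in the Hells het and Hells CKO lists, for the members, their families and other gene sets, with exact 95% binomial intervals as error bars. Members stand at 7.69% in Hells het and 82.7% in Hells CKO, and the other genes of the interval at 8.89% in Hells CKO.

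All families took part. In Hells CKO a peak lay at 6 of 6 H1, 9 of 12 H2A, 11 of 14 H2B, 7 of 9 H3 and 10 of 11 H4 genes. The 9 members without one were Hist1h3i, Hist1h2bq, Hist1h2ao, Hist1h4m, Hist1h2ap, Hist1h2br, Hist1h3e, Hist1h2ae and Hist1h2bg. Of the 6 members with under 5% unique words 1 had a peak (16.7%), and of the other 46 members 42 did (91.3%). The 45 other genes of the interval had 4 peaks in Hells CKO (8.89%), and the Hist2h, Hist3h and Hist4h genes had 7 of 13 (53.8%).

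The shares were then set beside genes of like chromatin. Among genes with the start in state 1 or 2, 42 of 51 members (82.4%) and 57.4% of 14437 other genes had a Hells CKO peak. Within state 1 alone it was 36 of 43 members (83.7%) and 61% of other genes. In quartile 2 of promoter H3K4me3 level, where 26 members fell, it was 23 of 26 (88.5%) and 43.3% of other genes, and in quartile 3 it was 9 of 9 members and 69.3%. Of the 17 members without an H3K4me3 region 11 had a peak (64.7%), against 4.47% of other genes without such a region. All of these members started in state 1 or 2, and the other genes were not matched for state. This last class is therefore not one of like chromatin. The member share was thus above that of other genes in each class that held members. Reads that map to several places can leave a gene without a region, and their part in the share of members without an H3K4me3 region was not tested. Of the members with no region in the ATAC-seq, H3K9ac and H3K4me3 tables, 7 had 68.5% to 91.1% unique words, and all 7 had a peak.

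The CKO peaks sat on the genes. The centre of the nearest peak was a median of 713 bp from a member's start in Hells CKO (6 to 20362.5 bp) and 45956.5 bp in Hells het (68.5 to 165667 bp), and 35 starts lay inside a Hells CKO peak against 1 inside a Hells het peak. The interval held 45 Hells CKO peaks, 26 of them at member promoters, 4 at other promoters and 15 elsewhere. Hells het had 11, with 3, 3 and 5 in these places. The lists held 14692 and 15831 peaks in all, so the Hells CKO list was not the longer. The 26 peaks at members were 800 to 6456 bp wide (median 3132.5), 16 of them reached 2 or 3 member promoters, and so a peak could not be assigned to 1 gene of a pair.

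**Figure D2:**
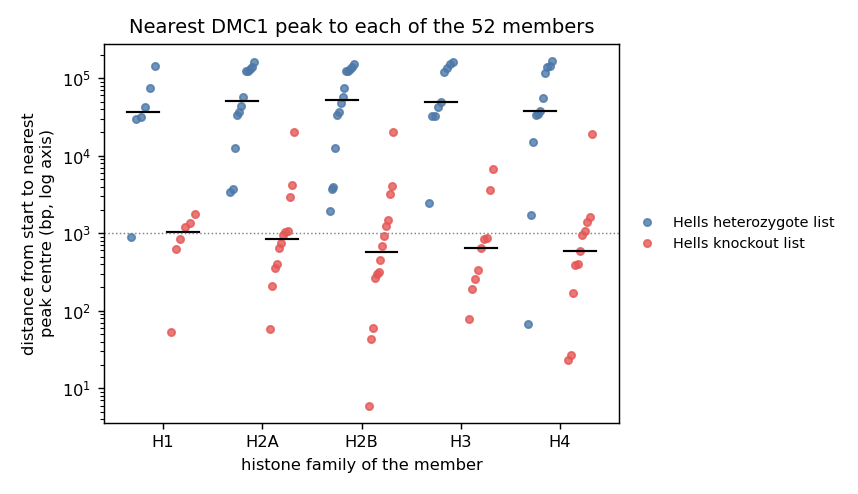
Distance in bp (log scale) from each member's start to the centre of the nearest DMC1 peak in Hells het and in Hells CKO. The median is 713 bp in Hells CKO and 45956.5 bp in Hells het.

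The 3 Hells het peaks at members each overlapped Hells CKO peaks. The first, chr13:21718471-21721755 (3285 bp), reached Hist1h3h and Hist1h2bm and overlapped 2 Hells CKO peaks. The second, chr13:21750011-21750863 (853 bp), lay at Hist1h4k, and the third, chr13:23696134-23697301 (1168 bp), at Hist1h1t. The centre of each was in state 1. Hist1h2aa and Hist1h2ba, just beyond the interval, also had a peak in both genotypes.

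The HELLS peaks at members were too few to tell their share from that of all genes. In B6-Prdm9CAST-KI testis 2 of 52 members (3.85%, exact interval 0.469% to 13.2%) had a HELLS peak at the promoter, against 6.73% of all genes. These were Hist1h4j and Hist1h4k, whose stretches printed above are near-identical. Both peaks overlap the printed stretch only in part and run past the annotated start into the gene. The peak at Hist1h4j, chr13:21735016-21735546, had 38 and 47 counts in the HELLS libraries, 8 in IgG and 16 in input. The peak at Hist1h4k, chr13:21750208-21750743, had 50 and 44 in HELLS, 10 in IgG and 6 in input. Medians over the 2675 peaks were 59 and 50 in HELLS, 9 in IgG and 16 in input, so both sites were below the median of the list. Counts are not scaled for depth here, and totals in peaks were 185076, 153260, 27308 and 46279.

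Open chromatin at the cluster did not differ detectably with the Prdm9 allele. Identifier runs in the labels follow the strain in this comparison, so strain and run cannot be told apart. None of the 21 member regions passed edgeR's quasi-likelihood test between B6-Prdm9CAST-KI and B6 at a Benjamini-Hochberg adjusted p of 0.05, against 9.41% of all regions, and DESeq2 called 0. Of promoter regions, 2.01% were called higher and 0.798% lower by edgeR. At an unadjusted p under 0.05 there were 0, against 13.8% of all regions. Log2 fold changes ran from -0.16 to 0.11 (standard errors 0.15 to 0.22), with a median of -0.03 beside -0.15 for all promoter regions. Groups did not overlap, with B6-Prdm9CAST-KI lower, at 2 of 21 regions, against 16.9% of all regions. Scaling by library size alone left 13 of 21 changes above 0 and DESeq2's scaling 2 of 21, so no direction is given.

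The HELLS-marked Hist1h4j promoter had 47.9 and 31.6 CPM in the B6 libraries and 36 and 35.2 in the B6-Prdm9CAST-KI libraries. The B6 libraries lay on either side of the others, and the log2 fold change was -0.16 (SE 0.19, edgeR adjusted p = 0.85). Hist1h1t had 19.9 and 17.95 CPM in B6 and 17.7 and 18.2 in B6-Prdm9CAST-KI, again overlapping, with a log2 fold change of -0.08 (SE 0.15, edgeR adjusted p = 0.92). The highest changes were at Hist1h3e (0.11) and at Hist1h2af and Hist1h3g (0.06), and the lowest at Hist1h2ae and Hist1h2bg (-0.16) and Hist1h4j. B6 replicate 1 was the highest of the 4 libraries in 18 of 21 member regions, against 48.7% of all promoter regions. Single libraries decided the sign. Without B6 replicate 2, Hist1h4j (-0.45, edgeR adjusted p = 0.0016) and Hist1h4k (-0.38, adjusted p = 0.020) were called lower, 2 of 21 regions against 9.51% of all regions in that fit. Without B6 replicate 1, Hist1h4j was at 0.18 and the member median at 0.15, with none called. Each of these fits has 1 B6 library, which is assumed to vary like the B6-Prdm9CAST-KI pair.

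**Figure D3:**
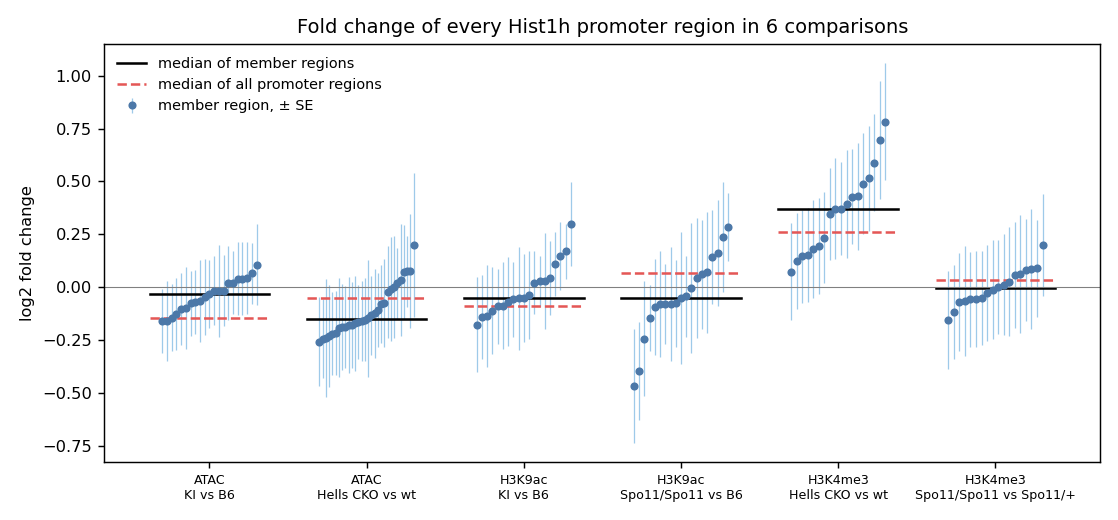
Log2 fold changes of the member regions in each comparison, 1 point a region, beside the median of all promoter regions. No member region passed the edgeR test in these comparisons, and H3K4me3 in Hells CKO against Hells wt is the comparison in which all 18 values are above 0.

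Open chromatin in Hells CKO was not called different here either. None of 30 member regions passed the edgeR test between Hells CKO and Hells wt, against 0.382% of all regions, and DESeq2 called 0. Of promoter regions, 0.135% were called lower by edgeR. At an unadjusted p under 0.05 there were 0, against 1.54%. Log2 fold changes ran from -0.26 to 0.20 (SE 0.17 to 0.34), with a median of -0.15 beside -0.05 for all promoter regions and 7 of 30 above 0. Groups did not overlap, with Hells CKO lower, at 3 of 30 regions, against 4.55% of all regions.

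Hist1h1t had the lowest value: 22.5, 26.9 and 17.95 CPM in the Hells CKO libraries and 27.6 and 26.4 in Hells wt, with a log2 fold change of -0.26 (SE 0.21, edgeR adjusted p = 1). Of the Hells CKO libraries 1 lay between the Hells wt values, so the groups overlapped. Hist1h2bm followed at -0.24, and the highest were Hist1h3d at 0.20, on 3.57 to 6.47 CPM, and the second, less open region of Hist1h2an and Hist1h2bp at 0.08. Hells wt replicate 1 was the highest library in 18 of 30 member regions, against 38.5% of promoter regions, and Hells CKO replicate 3 the lowest in 19, against 47.3%. Without that Hells wt library the median was -0.02, with 14 of 30 regions above 0.

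H3K9ac at the cluster was not called different by the Prdm9 allele. The B6, B6-Prdm9CAST-KI and Spo11/Spo11 libraries of H3K9ac have different identifier runs in the labels, so genotype and run cannot be told apart. None of 19 member regions passed, against 12.3% of all regions, DESeq2 called 0, and 0 had an unadjusted p under 0.05, against 23.3%. Of promoter regions, 3.96% were called higher and 0.175% lower by edgeR. Log2 fold changes ran from -0.18 to 0.30 (SE 0.12 to 0.24), with a median of -0.05 beside -0.09 for all promoter regions. The groups did not overlap, with B6-Prdm9CAST-KI higher, at 1 of 19 regions, against 22.4% of all regions. This was the pair Hist1h2ah and Hist1h2bk, with 40.1, 27.1 and 37.6 CPM in B6 and 45.0 and 41.1 in B6-Prdm9CAST-KI. Its log2 fold change was 0.30 (SE 0.20, edgeR adjusted p = 0.38). The region of Hist1h4a, Hist1h3a and Hist1h1a was next at 0.17, and Hist1h3i (-0.18) and the region of Hist1h4i, Hist1h2ag and Hist1h2bj (-0.14) were lowest. B6 replicate 2 was the lowest library of the table in 15 of 19 member regions, against 11.0% of promoter regions, and without it Hist1h3i was called lower (-0.34, edgeR adjusted p = 0.028), 1 of 19 regions against 26.8% of all regions in that fit. The member median was -0.19 without it, 0.08 without B6 replicate 1 and 0.03 without B6-Prdm9CAST-KI replicate 2, so no direction is given.

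SPO11 is the enzyme that makes the meiotic breaks. In the single H3K9ac library labelled Spo11/Spo11, none of 19 member regions passed against B6 (edgeR, against 0% of all regions), DESeq2 called 0, and 0 had an unadjusted p under 0.05, against 3.93% of all regions. Log2 fold changes ran from -0.47 to 0.28 (SE 0.16 to 0.31) with a median of -0.05, beside 0.07 for all promoter regions. Hist1h4d had 71.5, 46.8 and 67.3 CPM in B6 and 44.8 in Spo11/Spo11, with a log2 fold change of -0.47 (edgeR adjusted p = 0.92), and Hist1h1d 49.3, 36.2 and 45.4 against 33.2, with -0.40. In both the Spo11/Spo11 library was below the 3 B6 libraries, and B6 replicate 2 was nearest to it. It was below all 3 at 4 of 19 member regions, against 21.8% of all regions, and above all 3 at 1 of 19, against 22.2%. Without B6 replicate 2 both were called lower, Hist1h4d at -0.63 (edgeR adjusted p = 0.0086) and Hist1h1d at -0.51 (adjusted p = 0.030), 2 of 19 regions against 12.7% of all regions in that fit. The member median was -0.16 without it and 0.08 without B6 replicate 1. The highest were Hist1h4a, Hist1h3a and Hist1h1a at 0.28, with 92.1, 75.9 and 80.6 CPM in B6 and 100.8 in Spo11/Spo11, and Hist1h2bm at 0.24.

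H3K4me3 was higher in Hells CKO than in Hells wt by value at all 18 member regions, and the main test called none of them. Log2 fold changes were 0.07 to 0.78 (SE 0.22 to 0.28) with a median of 0.37, beside 0.26 for all promoter regions, of which 76.3% were above 0. By edgeR 0 of 18 passed, against 11.7% of all regions. Those called were 22 higher (0.0279% of all regions) and 9223 lower. Of promoter regions, 0.0535% were called higher and 2.91% lower by edgeR. DESeq2 called 3 of 18 higher, against 1.32% of all regions and 4.75% of promoter regions by DESeq2. At an unadjusted p under 0.05 there were 3 of 18, against 18.1% of all regions. The Hells CKO libraries were all above the Hells wt library at 16 of 18 regions, against 25% of all regions and 56.9% of promoter regions. Scaling by library size alone moved the median to 0.22 for members and 0.11 for promoters and put Hist1h4d (-0.07) and the region of Hist1h4f and Hist1h1d (-0.04) below 0.

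By family the medians were 0.49 for H1, 0.36 for H3, 0.30 for H2B and 0.23 for both H2A and H4. Hist1h1b, at chr13:21778047-21781502, had 70.9, 49.0 and 75.9 CPM in Hells CKO and 37.98 in Hells wt, beside 48.7 in Spo11/+ and 49.97 and 51.7 in Spo11/Spo11. The Hells wt library was the lowest of the 7, and Hells CKO replicate 2 lay among the Spo11 libraries. Its log2 fold change was 0.78 (SE 0.28, edgeR adjusted p = 0.12), and DESeq2 gave 0.89 (adjusted p = 0.0077). The pair Hist1h2be and Hist1h1e had 69.5, 50.8 and 81.6 CPM against 41.6, a change of 0.70 (SE 0.28, edgeR adjusted p = 0.19 and DESeq2 adjusted p = 0.024). Hist1h4k, also called by DESeq2, had 34.99, 27.1 and 32.1 CPM against 20.9, a change of 0.59 (SE 0.23, edgeR adjusted p = 0.17). Lowest were Hist1h4d, with 14.4, 17.1 and 14.9 CPM against 14.7 (0.07, edgeR adjusted p = 0.95), and the region of Hist1h4f and Hist1h1d (0.12, adjusted p = 0.90). Those 2 regions overlapped between the groups.

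The comparison has a single Hells wt library, which was also the shallowest of the 7. It was the lowest of the 7 libraries at 16 of 18 member regions, against 39.2% of promoter regions. Set against all libraries with intact Hells, the median was 0.09 for members and 0.20 for promoters, and 12 of 18 were above 0. Without Hells CKO replicate 2, 7 of 18 member regions were called higher by edgeR, against 3.22% of all regions and 12.2% of promoter regions in that fit. Without either of the other Hells CKO libraries none was called. Summed over the 18 regions, CPM was 968, 814 and 1033 in Hells CKO, 727 in Hells wt, 911 in Spo11/+ and 902 and 922 in Spo11/Spo11. The Spo11 libraries thus lay within the range of Hells CKO. The Sertoli cell list was above 0 at 15 of 15 regions (median 0.48), with sums of 1155, 872 and 1291 CPM in Hells CKO and 789 in Hells wt, 654 in Spo11/+ and 750 and 786 in Spo11/Spo11. Sums over Leydig, stromal and blood markers were 255.97, 268 and 294 CPM against 247. The part of cell composition in the member values was not tested.

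Between 2 Spo11/Spo11 libraries and 1 Spo11/+ library, H3K4me3 was not called different at any of 18 member regions (edgeR, against 0% of all regions), DESeq2 called 0, and 0 had an unadjusted p under 0.05, against 0.201% of all regions. Log2 fold changes ran from -0.16 to 0.20 (SE 0.22 to 0.28) with a median of -0.01, beside 0.03 for promoters, and 9 of 18 were above 0. Hist1h3i was highest at 0.20, with 21.5 and 24.8 CPM in Spo11/Spo11 and 20.2 in Spo11/+, and Hist1h4k followed at 0.09. Hist1h4d (-0.16) and Hist1h4b (-0.12) were lowest.

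In (B6xCAST) F1 germ cells both alleles are read in the same library. The deposited F1 table had regions for all 52 members, in 26 regions, and 19 held at least 20 allele-specific counts. The other 7, with 12 members, had 0 to 9 counts, which allow no statement. Of the 19, 2 were higher on the B6 allele (8.22% of all regions were) and 1 was lower (5.53%), and 4 had an unadjusted p under 0.05 (24.2% of all regions did). On the autosomes alone those shares were 6.48% and 5.63%, since males carry 1 X chromosome and 94.2% of the sex-chromosome regions tested were called higher on B6. The median log2 ratio of B6 to CAST was 0.03 for members and 0.03 for promoters.

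The region of Hist1h2bl, Hist1h2ai, Hist1h3h and Hist1h2bm, chr13:21713913-21723877, had 1001 B6 and 665 CAST ATAC-seq counts in library 1 and 855 and 576 in library 2. Both libraries favoured B6, at 60.1% and 59.7%, with a log2 ratio of 0.58 (SE 0.07, edgeR adjusted p = 6.5e-06). H3K9ac in 1 library was 55.1% B6 (exact interval 52.1% to 58.0%), and this region holds the Hells het DMC1 peak described above. Hist1h2ak and Hist1h2bn, chr13:21752105-21755661, had 293 and 217 counts, then 300 and 170, so 57.5% and 63.8% B6. The log2 ratio was 0.62 (SE 0.12, edgeR adjusted p = 0.0013), with H3K9ac at 64.9% B6 (59.4% to 70.1%). These 2 members had no region in the other count tables.

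The region of Hist1h4n, Hist1h2ap and Hist1h2br, chr13:21829073-21835625, went the other way, with 33 B6 and 85 CAST counts and then 33 and 89. B6 held 28% and 27%, the log2 ratio was -1.40 (SE 0.25, edgeR adjusted p = 0.00042), and H3K9ac was 36.4% B6 (27.8% to 45.6%). All 3 members had under 5% unique words, and the part of read placement was not tested. Hist1h1t and Hist1h4c shared a region whose libraries disagreed, with 58.3% and 29.2% B6 and a log2 ratio of -0.28 (SE 0.34, edgeR adjusted p = 0.70). Hist1h1b had 53.0% and 54.6% B6 in ATAC-seq, not called, and 64.2% (59.0% to 69.1%) in H3K9ac. Hist1h4b, on 40 counts, had the highest ratio, 1.03 (SE 0.58, edgeR adjusted p = 0.31). For H3K9ac 18 member regions had enough counts, with a median of 53.0% B6 (36.4% to 69.4%) beside 51.1% for promoters.

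**Figure D4:**
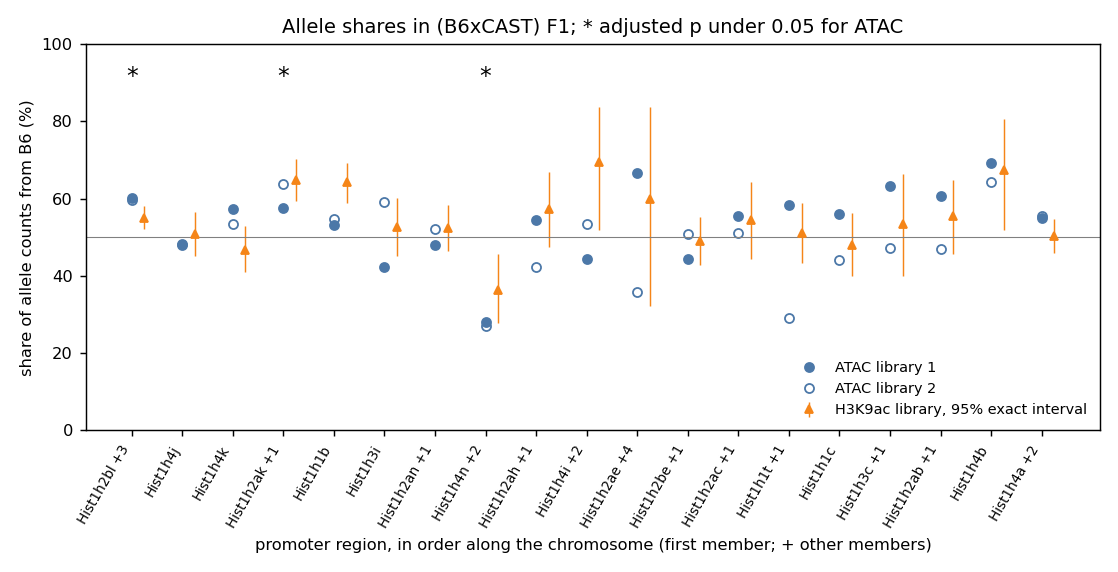
Percentage of allele-specific counts from the B6 allele at each member region, for the ATAC-seq libraries and the H3K9ac library of the (B6xCAST) F1, in genome order. The region of Hist1h4n, Hist1h2ap and Hist1h2br stands lowest in both ATAC-seq libraries, at 28% and 27%, among regions with at least 20 counts over both.

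Genes that serve the cluster were read from a fixed list of 23 factors of the histone locus body and of histone transcript processing. DMC1 in Hells CKO marked 21 of 23 of their promoters (91.3%), against 40.3% of all genes. It marked 22 of 23 promoters of S-phase genes (95.7%) and 22 of 25 of meiotic prophase genes (88.0%). The member share was 82.7%, so a high share was not particular to the cluster. Shares were lower than in these lists for replacement histone genes (8 of 15), spermatogonial genes (7 of 17), pachytene and spermatid genes (6 of 18), Leydig, stromal and blood markers (2 of 17) and Sertoli cell markers (1 of 12). The spermatogonial share, 41.2%, was near that of all genes. For open chromatin in B6-Prdm9CAST-KI against B6, 2 of 29 regions of the histone locus body list rose and 0 fell, against 7.14% and 2.27% of all regions. Both lie at Coil, which encodes coilin of the Cajal body, at 0.70 (SE 0.19, edgeR adjusted p = 0.038) and 0.80 (SE 0.23, adjusted p = 0.048) on the log2 scale. None of its 32 regions was called in Hells ATAC-seq and none of 34 in H3K9ac by Prdm9 allele, and 1 of 30, at the cleavage factor gene Cpsf3, fell for H3K4me3 in Hells CKO (-2.54, SE 0.65, edgeR adjusted p = 0.026), against 11.7% of all regions. On the F1 alleles 2 of 26 were higher on B6 and 2 lower, against 8.22% and 5.53% of all regions. The higher ones were Nfyc, a CCAAT-binding subunit, at 2.20 (SE 0.20, edgeR adjusted p = 1.3e-07) and Cstf2, which is on the X chromosome and so present in 1 copy in males. The lower ones were the regulators Yy1 at -2.27 (SE 0.27, edgeR adjusted p = 4.5e-06) and E2f1 at -0.81 (SE 0.22, edgeR adjusted p = 0.018). Of 26 S-phase regions 23 were above 0 in H3K4me3 of Hells CKO, with a median of 0.33, and in the histone locus body list 26 of 30 were, with a median of 0.33. A region at any annotated transcript start of a gene counts here. A called region, as at Cpsf3 above, therefore need not lie at the gene's outermost 5′ start. Of promoter regions 2.91% were called lower by edgeR, and 0.501% with outermost 5′ starts alone. The 3 S-phase regions below 0 were called lower, against 11.7% of all regions: Uhrf1 (-3.11, edgeR adjusted p = 0.00051), Chaf1a of the chromatin assembly factor (-1.83, adjusted p = 0.0011) and the replication licensing gene Cdc6 (-2.74, adjusted p = 0.0015).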

How the data were processed

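The members, gene lists and tests were chosen with earlier results of these data known. Per the submitters' processing notes, CASAVA, BWA 0.7.15, Bowtie 0.12.9 and MACS 1.4.2 were used with build mm10; which tool made which table is not given among the labels or headers. The authors deposited raw read counts per region and library for ATAC-seq, HELLS, H3K4me3 and H3K9ac. Counts split by allele in the F1 were deposited by the authors as estimated counts, which were rounded to whole numbers. Peak lists and chromatin states were used as deposited. A further 10 deposited columns matched no sample label and were set aside, and regions listed more than once (56) were kept once. Group columns follow the labels.

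A region belonged to a gene if it overlapped its promoter by 1 bp. edgeR 4.0.16 (quasi-likelihood test, TMM scaling, filterByExpr; limma 3.58.1, R 4.3.3) was fitted over every region of a table, with Benjamini-Hochberg adjustment over all regions and a threshold of 0.05. H3K9ac groups shared 1 estimate of the spread, as did H3K4me3 groups, so a group of 1 library is assumed to vary like the others. F1 alleles were tested within library at 20 or more allele counts. DESeq2 1.42.0, other scalings, filters and promoter widths, and leaving out each library were alternatives. Binomial intervals are exact (95%, scipy 1.17.1, Python 3.11.15) and cover counting error only. Figures used matplotlib 3.10.9. The scripts were tested on simulated data. Levels are CPM and CPM per kb.

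Genes named are Hist1h1t, those that passed a test, the 2 highest and 2 lowest fold changes of a comparison, the 3 highest and 3 lowest levels of a table, and members with DMC1 or HELLS peaks or without a region. From the lists, those that passed are named, at most 5 by lowest p in a comparison; a second region of Coil, Cpsf3 and E2f1 in the histone locus body list were named after their values were seen. Marker lists were Sertoli, Leydig, stromal and blood, spermatogonial, meiotic prophase, pachytene and spermatid, and S phase genes.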

Additional observations from a re-analysis of the deposited data

How the results depend on the processing

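By replicate number no paired analysis was possible because the labels give the groups no shared numbers. Libraries were paired by the identifier run in the labels instead. For Hells ATAC-seq the run served as a block, with a member median of -0.04 and 0 member calls. In that fit 1.26% of all regions were called lower and 0.0147% higher. The run of Hells CKO replicate 3 held no other Hells ATAC-seq library, so that library did not bear on the contrast. The Hells het and Hells CKO DMC1 counts were 3 to 5 and 41 to 44 over promoter widths and overlap minimums, and the HELLS count was 2. The share of member promoter bases in states 1 and 2 was 71.9% at 2 kb. For H3K4me3 in Hells CKO, DESeq2 called 3 higher. The median log2 change was 0.086 with every library with intact Hells as reference and 0.18 between the libraries of the shared identifier run. The region of Hist1h4f and Hist1h1d was at -0.037 with library size alone and -0.086 with that reference, and Hist1h4d at -0.073 and -0.045. The cause of these shifts was not tested.

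Leaving out 1 library at a time gave these ranges. ATAC-seq by Prdm9 allele: median -0.21 to 0.15, 0 to 2 lower, Hist1h4j -0.45 to 0.18, Hist1h1t -0.17 to 0.0084 and Hist1h3e -0.027 to 0.22. H3K9ac: median -0.19 to 0.077 and 0 to 1 lower by Prdm9 allele, and median -0.16 to 0.081 and 0 to 2 lower for Spo11/Spo11, with the calls without B6 replicate 2 and the highest median without B6 replicate 1. H3K4me3 in Hells CKO: median 0.31 to 0.48 and 0 to 7 higher. Hells ATAC-seq: median -0.24 to -0.021 with 3 to 14 of 30 regions above 0 and no calls. Of the 4 regions named for that comparison, those of Hist1h2an and Hist1h2bp (-0.081 to 0.24) and of Hist1h3d (-0.019 to 0.51) crossed 0. The F1 comparison allows no statement on 7 of 26 regions, with 0 to 9 allele counts. The part of depth, of strain differences and of read placement in these was not tested.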
